A study of Mus musculus with 8 samples.

Results

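The genes described here are 10 markers of mast cells, the tissue-resident leukocytes that store proteases and histamine in granules. They are the mucosal chymase genes Mcpt1 and Mcpt2, the connective tissue protease genes Mcpt4, Cma1 and Tpsb2, the carboxypeptidase gene Cpa3, the IgE receptor genes Fcer1a and Ms4a2, the growth factor receptor gene Kit and the histamine enzyme gene Hdc. They were chosen by symbol, matched to Ensembl identifiers through GENCODE M21, and all 10 were found among the 38355 genes of the tables. All 10 also passed the filter on low counts that left 16539 genes for testing.

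RNA was sequenced from 8 whole colon tumours of mice given azoxymethane, a colon carcinogen, with 1 tumour per mouse. The 4 Trp53ΔIEC mice lack the tumour suppressor gene Trp53 in intestinal epithelial cells, and the 4 Trp53ΔIECAktE17K mice carry in addition the activated kinase AKT E17K. The loss of Trp53 and the carcinogen are therefore common to both groups. Neither the driver of the deletion, nor the age of the mice, nor the time of sampling is given in the sources used here. Reads assigned to genes ranged from 18572180 to 26268547 per tumour. The epithelial markers Epcam, Cdh1, Krt8, Krt18, Krt19, Krt20, Cdx2 and Vil1, which check the labelled tissue, summed to 8297 to 10750 CPM in Trp53ΔIEC and to 4986 to 10530 CPM in Trp53ΔIECAktE17K tumours. CPM is the number of reads per 1e6 reads of the TMM-scaled library. The sums overlapped, whereas Epcam and Vil1 were lower in every Trp53ΔIECAktE17K tumour than in any Trp53ΔIEC tumour.

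Mast cells of the gut fall into a mucosal type, which lies in and under the epithelium, and a connective tissue type of the submucosa and muscle layer. In the mouse the mucosal type is marked by the chymases of Mcpt1 and Mcpt2. The connective tissue type is marked by the chymases of Mcpt4 and Cma1 and the tryptase of Tpsb2. Both types depend on KIT and its ligand, stem cell factor, and release their granules when antigen crosslinks IgE on the high-affinity receptor.

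Mcpt1, Mcpt2, Mcpt4 and Cma1 lie in 1 gene cluster on chromosome 14 (GRCm38). Cma1 spans 55941451 to 55944675 on the minus strand, Mcpt1 56017971 to 56020384 and Mcpt2 56042041 to 56044642 on the plus strand, and Mcpt4 56059629 to 56062313 on the minus strand. Their coding sequences are alike, and this bears on how short reads can be assigned. Mcpt1 and Mcpt4, a mucosal and a connective tissue chymase, had 86.5% identical bases, Mcpt1 and Mcpt2 81.1%, and Mcpt1 and Cma1 63.8%. The start of the coding sequence, bases 1 to 60 from the GENCODE M21 transcripts, shows how close the first 3 genes are, with capitals where a base differs from Mcpt1.
Mcpt1: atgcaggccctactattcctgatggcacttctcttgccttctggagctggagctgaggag
Mcpt2: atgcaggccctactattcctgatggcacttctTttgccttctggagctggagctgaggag
Mcpt4: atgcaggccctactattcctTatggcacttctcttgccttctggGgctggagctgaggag
In this stretch Mcpt2 differed from Mcpt1 at 1 base and Mcpt4 at 2 bases. Over the whole transcripts, none of the stretches of 50 bases of Mcpt1, Mcpt2, Tpsb2, Cpa3, Fcer1a, Kit or Hdc occurred in a transcript of another gene on either strand. For Mcpt4 the share was 5.48%, all with Cma2, for Cma1 5.38% and for Ms4a2 2.13%. The read length is not given in the sources used here. No other gene in the tables overlapped any of the 10.

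The windows of 250 bases upstream of the annotated start are shown for a mucosal chymase, the connective tissue chymases, Cpa3 and, as the member with another pattern, Kit (RefSeq starts on GRCm38.p6, 5′ to 3′ in the direction of the gene). Of the 10 genes 8 had an entry in the promoter table used. Capitals mark matches, on either strand, to AGATAA or TGATAA, forms of the site read by GATA factors, or to CACGTG or CATGTG, forms of the E-box read by MITF. GATA2 and MITF are known regulators of mast cell genes.
Mcpt1 (chr14:56017714-56017963, plus strand): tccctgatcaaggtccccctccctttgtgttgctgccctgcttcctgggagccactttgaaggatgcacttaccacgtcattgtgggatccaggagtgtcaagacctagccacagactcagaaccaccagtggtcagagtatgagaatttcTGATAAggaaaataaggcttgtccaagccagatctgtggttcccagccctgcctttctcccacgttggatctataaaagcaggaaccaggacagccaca
Mcpt4 (chr14:56062311-56062560, minus strand): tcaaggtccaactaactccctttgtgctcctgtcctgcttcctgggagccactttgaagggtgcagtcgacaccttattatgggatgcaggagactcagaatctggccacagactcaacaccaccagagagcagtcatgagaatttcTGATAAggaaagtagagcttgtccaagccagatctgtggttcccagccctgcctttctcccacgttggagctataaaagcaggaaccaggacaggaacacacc
Cma1 (chr14:55944676-55944925, minus strand): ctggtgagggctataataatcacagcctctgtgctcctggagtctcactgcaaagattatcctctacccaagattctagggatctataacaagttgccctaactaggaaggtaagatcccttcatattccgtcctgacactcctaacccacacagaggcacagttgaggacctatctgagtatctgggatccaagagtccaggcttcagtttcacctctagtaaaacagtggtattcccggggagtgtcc
Cpa3 (chr3:20242182-20242431, minus strand): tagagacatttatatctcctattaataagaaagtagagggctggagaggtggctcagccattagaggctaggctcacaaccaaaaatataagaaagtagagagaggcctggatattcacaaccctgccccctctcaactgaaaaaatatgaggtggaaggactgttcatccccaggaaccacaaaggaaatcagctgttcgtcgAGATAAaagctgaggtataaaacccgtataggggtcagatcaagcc
Kit (chr5:75574737-75574986, plus strand): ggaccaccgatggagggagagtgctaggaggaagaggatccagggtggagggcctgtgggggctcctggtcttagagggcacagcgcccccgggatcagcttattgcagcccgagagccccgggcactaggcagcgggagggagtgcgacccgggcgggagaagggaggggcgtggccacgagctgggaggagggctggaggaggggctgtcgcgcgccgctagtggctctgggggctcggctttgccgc
Mcpt1 and Mcpt4 had 84.2% identical aligned bases in these windows, and each had 1 match to TGATAA. Cpa3 had 1 match to AGATAA near its start and Ms4a2 had 3, while Fcer1a had 1 match to AGATAA and 1 to CATGTG. The window of Cma1, both windows of Kit and that of Hdc held no match to any of the 4 motifs. Other forms of these sites were not searched, so these windows may still hold some. Among 32851 windows of this length, 9.99% held AGATAA, 7.94% TGATAA, 6.02% CACGTG and 12.3% CATGTG. A match in the sequence does not show that a factor binds there.

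None of the 10 genes passed the test for a difference between the genotypes. The 8 members that encode proteases or chains of the IgE receptor had lower fitted levels in Trp53ΔIECAktE17K tumours, with log2 fold changes from -2.43 to -0.99, and Kit and Hdc had higher ones, 2.41 and 0.54. Among all 16539 genes, edgeR's quasi-likelihood test with Benjamini-Hochberg adjustment called 4.20% at an adjusted p under 0.05, 0.756% as lower and 3.44% as higher. At an unadjusted p under 0.05 the members Cma1 and Kit passed, 2 of 10, 1 lower and 1 higher, where 20.8% of all genes did, 8.07% as lower and 12.8% as higher. DESeq2 called 1 member, Kit, as higher, where it called 12.0% of the genes it tested, 8.31% as higher and 3.70% as lower. limma-voom called 0 members, where it called 3.31% of the genes, 2.61% as higher and 0.695% as lower. The median log2 fold change of the 10 was -1.60, and that of all genes tested was 0.01. In whole tumours fewer mast cells and less RNA per mast cell cannot be told apart.

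**Figure D1:**
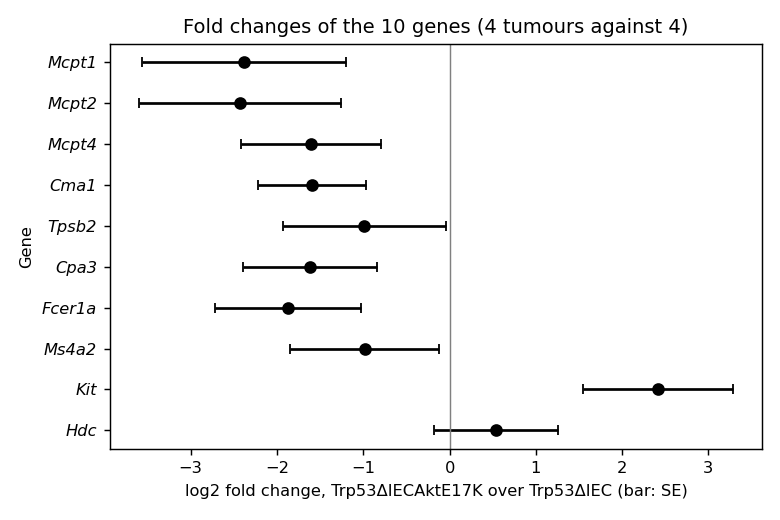
The log2 fold change of each gene, Trp53ΔIECAktE17K over Trp53ΔIEC, is plotted on the x axis with its standard error as a bar, for 4 tumours against 4. The 8 proteases and IgE receptor genes lie between -2.43 and -0.99, Kit at 2.41 and Hdc at 0.54, and none passed the adjusted test.

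Tumours differed widely in every member, also within a genotype. The highest of the 8 tumours exceeded the lowest by 460-fold for Mcpt1 and 420-fold for Mcpt2, by 27.3-fold to 59.6-fold for Cma1, Cpa3, Ms4a2, Kit, Tpsb2, Mcpt4 and Fcer1a, and by 12.8-fold for Hdc. Trp53ΔIEC replicate 1 was highest of the 8 tumours for all 8 proteases and IgE receptor genes, and Trp53ΔIECAktE17K replicate 3 was lowest for all of them. Trp53ΔIEC replicate 4 lay among the low tumours, in rank 4 for Cma1 and in ranks 6 and 7 for the other 7.

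**Figure D2:**
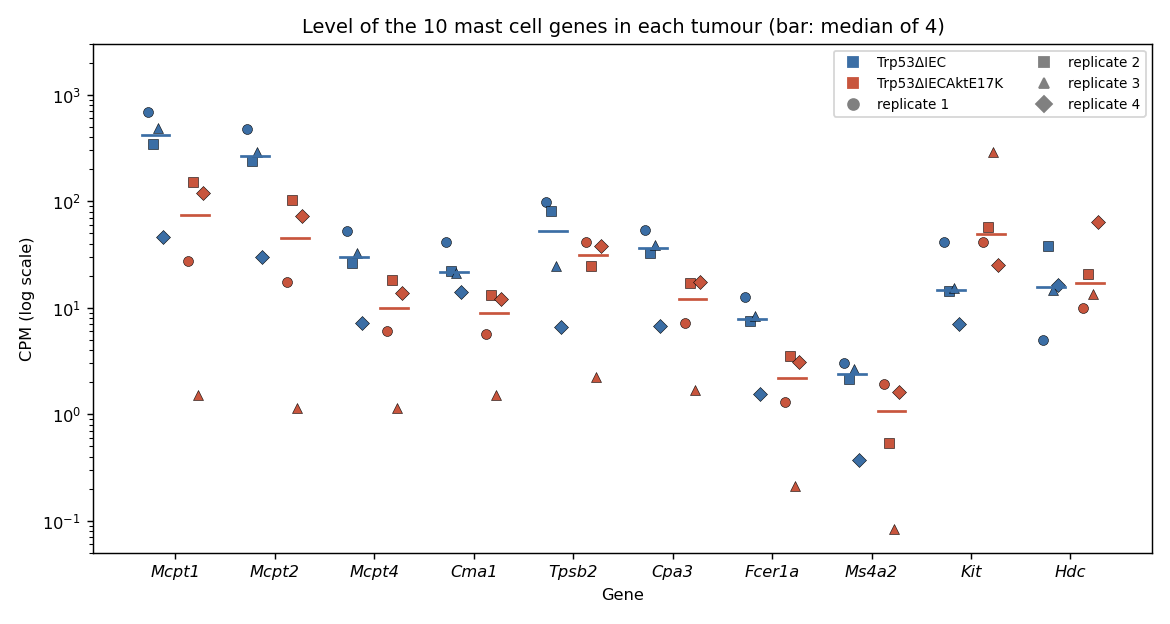
Each point is 1 tumour, with CPM on a logarithmic y axis, genes on the x axis, colour for genotype and symbol for replicate, and a bar at the median of 4 tumours. The triangle of Trp53ΔIECAktE17K replicate 3 is lowest for the proteases and IgE receptor genes, at 0.0840 to 2.23 CPM, and highest for Kit, at 292.3 CPM.

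Mcpt1 encodes the chymase of mucosal mast cells that is released into gut and blood on degranulation. Its level was 695.4, 348.0, 487.0 and 46.3 CPM in Trp53ΔIEC replicates 1 to 4, and 27.6, 153.2, 1.51 and 120.1 CPM in Trp53ΔIECAktE17K replicates 1 to 4. Of the Trp53ΔIEC tumours 3 lay above every Trp53ΔIECAktE17K tumour, whereas replicate 4 lay below 2 of them, so the groups overlapped. The means were 394.2 ± 272.3 and 75.6 ± 72.6 CPM (SD, n = 4 each), and the log2 fold change was -2.38 ± 1.19 (SE, adjusted p = 0.296, edgeR).

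Mcpt2, the neighbouring mucosal chymase gene, followed the same order of tumours. It had 476.1, 240.8, 291.1 and 30.2 CPM in Trp53ΔIEC and 17.4, 102.4, 1.13 and 72.4 CPM in Trp53ΔIECAktE17K replicates 1 to 4. edgeR put the log2 fold change at -2.43 ± 1.17 (SE, adjusted p = 0.281). While the level of Mcpt2 ranged over 420-fold, Mcpt1 reads outnumbered Mcpt2 reads by a ratio that stayed between 1.33 and 1.67 in all 8 tumours. The lowest ratio was that of Trp53ΔIECAktE17K replicate 3, which rests on 36 and 27 reads.

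Mcpt4, the chymase gene of connective tissue mast cells, shared the order of the mucosal genes in all 8 tumours. Its level was 52.6, 26.5, 32.9 and 7.12 CPM in Trp53ΔIEC and 6.05, 18.1, 1.13 and 13.8 CPM in Trp53ΔIECAktE17K replicates 1 to 4. The groups overlapped through Trp53ΔIEC replicate 4, and the log2 fold change was -1.61 ± 0.81 (SE, adjusted p = 0.304, edgeR).

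Cma1, which encodes a protease of the chymase family also known as mast cell protease 5, was the member whose groups did not overlap. It had 41.3, 22.0, 21.1 and 14.1 CPM in Trp53ΔIEC and 5.67, 13.3, 1.51 and 12.2 CPM in Trp53ΔIECAktE17K replicates 1 to 4. The gap between the groups, from 13.3 to 14.1 CPM, was narrow, and 14.2% of all genes had no overlap between the groups in either direction, 5.88% with the Trp53ΔIECAktE17K tumours lower. The log2 fold change was -1.59 ± 0.63 (SE, unadjusted p = 0.0329, adjusted p = 0.193, edgeR).

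Tpsb2, the gene of the tryptase also known as mast cell protease 6, had another order of tumours. Its level was 98.2, 80.2, 24.6 and 6.56 CPM in Trp53ΔIEC and 41.3, 24.7, 2.23 and 37.7 CPM in Trp53ΔIECAktE17K replicates 1 to 4. Trp53ΔIECAktE17K replicates 1, 2 and 4 lay above Trp53ΔIEC replicates 3 and 4, and the log2 fold change was -0.99 ± 0.94 (SE, adjusted p = 0.596, edgeR). Tpsb2 reads per Cma1 read ranged from 0.465 in Trp53ΔIEC replicate 4 to 7.28 in Trp53ΔIECAktE17K replicate 1, a wider range than that of Mcpt4 reads per Cma1 read, 0.505 to 1.56.

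Cpa3 encodes the granule carboxypeptidase that is stored together with the chymases. It had 54.2, 33.0, 39.2 and 6.75 CPM in Trp53ΔIEC and 7.15, 17.1, 1.68 and 17.4 CPM in Trp53ΔIECAktE17K replicates 1 to 4, with overlap between the groups. Its log2 fold change was -1.62 ± 0.78 (SE, adjusted p = 0.278, edgeR).

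The proteases were also compared as mucosal against connective tissue type, by the summed CPM per kilobase of exon of Mcpt1 and Mcpt2 over that of Mcpt4, Cma1 and Tpsb2, with 1 count added to each gene. The ratio was 7.72, 6.03, 11.7 and 3.15 in Trp53ΔIEC replicates 1 to 4, so the mucosal genes prevailed in each of these tumours. In Trp53ΔIECAktE17K replicates 1 to 4 it was 1.19, 5.61, 0.675 and 3.94. Replicate 3 was the tumour in which the connective tissue genes had the higher sum, and replicates 2 and 4 lay within the range of the Trp53ΔIEC tumours. The low ratio of replicate 1 rests largely on Tpsb2, which gave 25.9 of the connective tissue sum of 36.6 CPM per kilobase. In replicate 3 the genes had similar low levels. Mcpt1 and Mcpt2 were at 1.49 and 1.07, and Mcpt4, Cma1 and Tpsb2 at 1.02, 1.39 and 1.40. The sums there, 2.56 over 2 mucosal genes and 3.81 over 3 connective tissue genes, change order when either Tpsb2 or Cma1 is left out. On the log2 scale the ratio averaged 2.68 ± 0.79 in Trp53ΔIEC and 1.04 ± 1.44 in Trp53ΔIECAktE17K tumours (SD, n = 4 each), a difference of -1.65 that is given without a test because the ratio is a score over the chosen genes.

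The share of reads restates this contrast from the same counts, with Cpa3 added, and is not separate evidence. Of the reads of Mcpt1, Mcpt2, Mcpt4, Cma1, Tpsb2 and Cpa3 together, those of Mcpt1 and Mcpt2 made up 82.6%, 78.5%, 86.9% and 68.9% in Trp53ΔIEC replicates 1 to 4. In Trp53ΔIECAktE17K replicates 1 to 4 they made up 42.8%, 77.7%, 28.8% and 70.4%. The share in replicate 3 rests on 219 reads (95% exact binomial interval 22.9% to 35.3%) and that in replicate 1 on 2483 reads (40.8% to 44.7%). Each interval describes counting within 1 library and leaves out variation between mice. PCR copies of a molecule were counted as separate reads, so the intervals may be too narrow even for counting error. The tumours with the fewest protease reads, Trp53ΔIEC replicate 4 and Trp53ΔIECAktE17K replicates 1 and 3, were also the 3 with the lowest shares of Mcpt1 and Mcpt2. Of the assigned reads of Trp53ΔIEC replicates 1 to 4 the 6 genes took 0.143%, 0.0760%, 0.0863% and 0.0109%. In the Trp53ΔIECAktE17K tumours these shares were 0.0106%, 0.0338%, 0.000949% and 0.0260%.

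**Figure D3:**
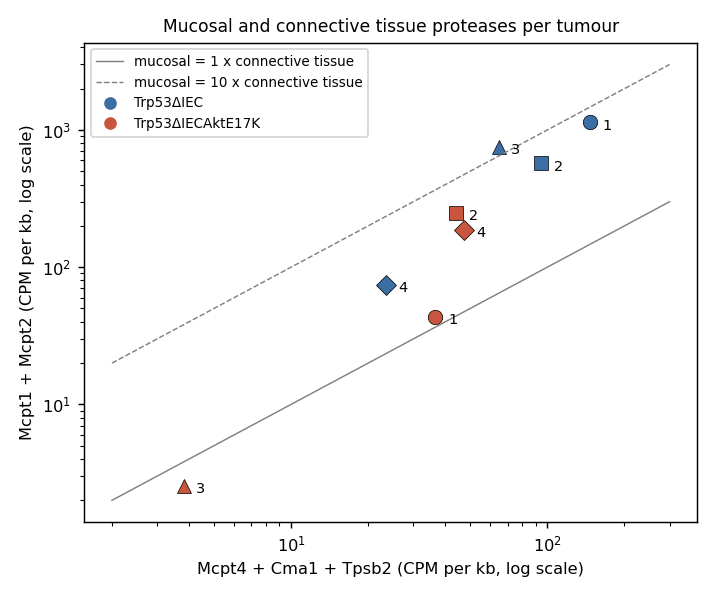
Each tumour is placed by its summed connective tissue proteases on the x axis and its summed mucosal proteases on the y axis, both in CPM per kilobase of exon on logarithmic scales, with lines at equal and at 10-fold levels and the replicate number beside each point. The Trp53ΔIEC tumours lie at ratios of 3.15 to 11.7 and the Trp53ΔIECAktE17K tumours at 0.675 to 5.61.

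Fcer1a encodes the chain of the high-affinity receptor that binds IgE. It had 12.5, 7.45, 8.33 and 1.54 CPM in Trp53ΔIEC and 1.31, 3.54, 0.210 and 3.07 CPM in Trp53ΔIECAktE17K replicates 1 to 4, in the same order of tumours as Mcpt1, and the groups overlapped. Its log2 fold change was -1.87 ± 0.84 (SE, adjusted p = 0.253, edgeR). Trp53ΔIECAktE17K replicate 3 held 5 reads of it (95% exact Poisson interval 0.0682 to 0.490 CPM).

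Ms4a2, the gene of the signal-amplifying beta chain of that receptor, was the member with the lowest level. It had 3.02, 2.14, 2.68 and 0.372 CPM in Trp53ΔIEC and 1.91, 0.535, 0.0840 and 1.63 CPM in Trp53ΔIECAktE17K replicates 1 to 4, with 2 reads in the lowest tumour. Trp53ΔIEC replicate 4 lay below 3 of the Trp53ΔIECAktE17K tumours, and the log2 fold change was -0.99 ± 0.86 (SE, adjusted p = 0.557, edgeR). Fcer1g, the gamma chain that other myeloid cells share, had 29.0 ± 12.2 and 33.8 ± 12.7 CPM (SD, n = 4 each, log2 fold change 0.22, or -0.18 when the title letter entered the fit and -0.07 without Trp53ΔIECAktE17K replicate 2).

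Kit encodes the receptor of stem cell factor, on which mast cell survival depends. Kit also marks interstitial cells of Cajal, melanocytes and some epithelial cells. Its level was 41.3, 14.3, 15.3 and 7.03 CPM in Trp53ΔIEC and 41.1, 57.4, 292.3 and 25.3 CPM in Trp53ΔIECAktE17K replicates 1 to 4. Trp53ΔIEC replicate 1 lay among the Trp53ΔIECAktE17K tumours, so the groups overlapped, and Trp53ΔIECAktE17K replicate 3 lay far above all other tumours. In edgeR the log2 fold change was 2.41 ± 0.87 (SE, unadjusted p = 0.0226, adjusted p = 0.159, edgeR), and without Trp53ΔIECAktE17K replicate 3 it was 1.09 (adjusted p = 0.336). DESeq2 gave 2.39 (adjusted p = 0.0269), while adjusted p over all alternatives ranged from 0.0269 to 0.336.

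The tumour with the most Kit reads had the fewest reads of the mast cell proteases. Trp53ΔIEC replicates 1 to 4 had 0.762, 0.434, 0.391 and 1.04 Kit reads per Cpa3 read. Trp53ΔIECAktE17K replicates 1 to 4 had 5.75, 3.35, 174.0 and 1.46. This ratio did not overlap between the groups. It joins 2 members with log2 fold changes of opposite sign, and no share over all gene pairs was computed. It is given as a description with no test. Hdc reads per Cpa3 read did overlap, at 0.0917 to 2.45 in Trp53ΔIEC and 1.21 to 8.10 in Trp53ΔIECAktE17K tumours. Other cells that carry Kit were looked for by their markers. Of 5 markers of interstitial cells of Cajal, whose sum was 186.1 to 223.3 CPM in Trp53ΔIEC and 127.7 to 364.3 CPM in Trp53ΔIECAktE17K tumours, the channel gene Ano1 was lowest of all tumours in Trp53ΔIECAktE17K replicate 3, at 47.3 CPM. The transcription factor gene Etv1 rose from 0.643 ± 0.134 to 1.78 ± 0.455 CPM (SD, n = 4 each, adjusted p = 0.0418, edgeR) and was at 1.18 CPM in that tumour, the lowest of its group. The kinase gene Prkcq was high in that tumour, at 29.3 CPM, below replicate 1 of the group with 59.7 CPM and above the other 6 tumours with 1.91 to 18.3 CPM (log2 fold change 2.29, adjusted p = 0.111, edgeR; 0.00875, DESeq2). Of the other 2 markers, Thbs4 was at 48.1 CPM there, within the range of the Trp53ΔIEC tumours, and Edn3 at 1.81 CPM, the lowest of all. Edn3 was lower in Trp53ΔIECAktE17K tumours, at -1.81 on the log2 scale, and edgeR did not call it (adjusted p = 0.178). DESeq2 called Edn3 lower (adjusted p = 0.0484) and 2 of the 5 markers, Etv1 and Prkcq, higher. Of 5 melanocyte markers, Tyr and Tyrp1 had 0 reads in all 8 tumours and Mlana at most 2, whereas Dct had 1 to 18 reads and Pmel 32 to 141 reads. Pmel, a melanosome gene, was at 2.77 CPM in Trp53ΔIECAktE17K replicate 3, within the 1.49 to 5.40 CPM of the Trp53ΔIEC tumours. The part of these cells in the level of Kit was not tested. The Etv1 call held in 1 of 8 runs that left out a tumour, that without Trp53ΔIECAktE17K replicate 3, and adjusted p reached 0.121.

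Kitl, the gene of stem cell factor, had 395.3, 164.2, 219.8 and 175.2 CPM in Trp53ΔIEC and 402.2, 240.1, 205.6 and 138.3 CPM in Trp53ΔIECAktE17K replicates 1 to 4. Replicate 1 of each group was high, and the groups overlapped over nearly their whole range (log2 fold change 0.05 ± 0.38, SE, adjusted p = 0.962, edgeR; negative in 4 of 8 runs without 1 tumour and when the title letter entered the fit).

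Hdc encodes histidine decarboxylase, which makes histamine in mast cells, basophils, some neutrophils and macrophages and gastric endocrine cells. It had 4.98, 37.8, 14.8 and 16.5 CPM in Trp53ΔIEC and 9.99, 20.7, 13.6 and 63.8 CPM in Trp53ΔIECAktE17K replicates 1 to 4. The tumour with the most protease reads, Trp53ΔIEC replicate 1, was the lowest for Hdc, and Trp53ΔIECAktE17K replicate 4 was the highest. The log2 fold change was 0.54 ± 0.72 (SE, adjusted p = 0.713, edgeR), and it was -0.35 without Trp53ΔIECAktE17K replicate 4. The same tumours held the lowest and highest sums of 12 neutrophil markers, which were 32.5, 250.4, 505.5 and 184.5 CPM in Trp53ΔIEC and 333.2, 245.1, 212.8 and 907.1 CPM in Trp53ΔIECAktE17K replicates 1 to 4. S100a8 and S100a9 made up most of each sum other than that of Trp53ΔIEC replicate 1. Of the 10 tested neutrophil markers 6 had positive and 4 negative log2 fold changes. The negative ones were Ly6g (-0.41), Csf3r (-0.27), Mpo (-0.11) and Cxcr2 (-0.10), none of them called. edgeR called 2 of the 10 higher, and DESeq2 and limma-voom 3 each. Of all genes these called 3.44%, 8.31% and 2.61% as higher. Camp, the cathelicidin gene, rose from 0 to 0.0559 CPM in Trp53ΔIEC to 0.745 to 1.65 CPM in Trp53ΔIECAktE17K tumours (adjusted p = 0.0107, edgeR), and was called in 6 of 8 runs without 1 tumour, with adjusted p at 0.0530 and 0.0521 without Trp53ΔIEC replicates 2 and 4. Mmp8, the neutrophil collagenase gene, rose from 0.536 to 2.86 CPM to 5.25 to 17.7 CPM (adjusted p = 0.0419, edgeR), and was called in 0 of these 8 runs (adjusted p up to 0.116). The part of neutrophils in the level of Hdc was not tested.

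**Figure D4:**
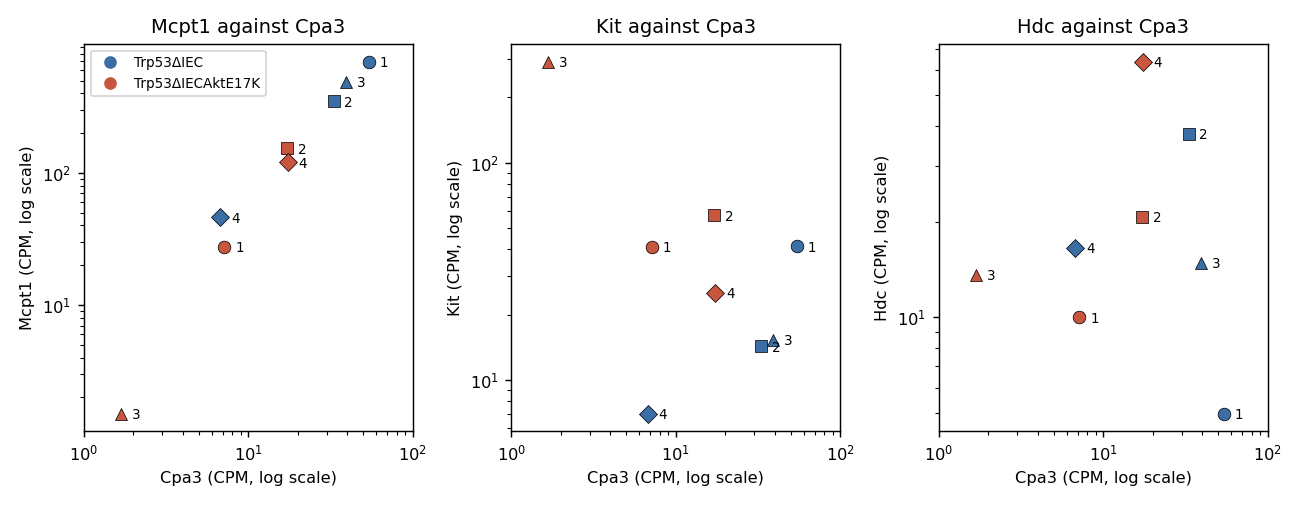
Mcpt1, Kit and Hdc (y axes) are plotted against Cpa3 (x axis) in CPM on logarithmic scales, with 1 point per tumour, its colour for the genotype and its replicate number beside it. Mcpt1 rises with Cpa3 over all tumours, whereas Trp53ΔIECAktE17K replicate 3 has the lowest Cpa3, 1.68 CPM, and the highest Kit, 292.3 CPM, and Hdc shows no such order.

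Levels were compared between genes as CPM per kilobase of exon, by the median over the 8 tumours. The order was Mcpt1 (134.7), Mcpt2 (82.4), Tpsb2 (19.6), Mcpt4 (14.4), Cma1 (12.6), Cpa3 (11.4), Kit (3.73), Fcer1a (3.31), Hdc (2.45) and Ms4a2 (0.628). Mcpt1 lay above Mcpt2 in 8 of 8 tumours, Mcpt2 above Tpsb2 in 6, Cpa3 above Kit in 7 and Hdc above Ms4a2 in 7. Mcpt4 lay above Cma1 in 6. The order of Tpsb2 and Mcpt4, Cma1 and Cpa3, Kit and Fcer1a, and Fcer1a and Hdc was the reverse in 3 to 5 of the tumours, so these neighbours did not differ beyond their spread. The length used was the union of exons, 6389 bases for Hdc and 8911 for Kit. Their protein-coding transcripts held only 2343 and 5249 different stretches of 50 bases. The places of Hdc and Kit in this order therefore depend on the length used.

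Over the 8 tumours the 8 proteases and IgE receptor genes varied together. The Pearson correlation of log2 CPM was 0.74 to 0.999 among their 28 pairs, -0.69 to -0.39 between them and Kit, and -0.05 to 0.04 between them and Hdc. With the group means taken out these correlations were 0.70 to 0.999 for the 28 pairs, -0.43 to -0.24 for Kit and 0.06 to 0.22 for Hdc. These values describe 8 tumours that share 2 genotypes, and Trp53ΔIECAktE17K replicate 3 lies at an end of most of them. Among 13355 genes with an average log2 CPM of at least 1, the 5 whose pattern was most like that of Cpa3 were Fcer1a (r = 0.997), Mcpt4 (0.993), Mcpt2 (0.989), Mcpt1 (0.988) and Gstm4 (0.986), a glutathione transferase gene. For Mcpt1 they were Mcpt2 (r = 0.999), Mcpt4 (0.995), Fcer1a (0.993), Cpa3 (0.988) and Slc18a2 (0.980), the vesicular monoamine transporter gene that loads histamine and serotonin into granules. With the 2 tumours farthest from the median left out, these correlations were 0.970 to 0.991 for Cpa3 and 0.970 to 0.999 for Mcpt1. Slc18a2 itself had 13.2, 11.1, 12.3 and 9.59 CPM in Trp53ΔIEC and 8.51, 10.8, 7.10 and 10.5 CPM in Trp53ΔIECAktE17K replicates 1 to 4, a far narrower range in the same order of tumours.

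Within the chromosome 14 cluster the genes next to the members were read in the same way. Mcpt9, a chymase gene between Mcpt1 and Mcpt2, had 9.99, 5.57, 3.91 and 0.605 CPM in Trp53ΔIEC and 0.0847, 1.65, 0.0420 and 0.792 CPM in Trp53ΔIECAktE17K replicates 1 to 4 (log2 fold change -2.96 ± 1.13, SE, unadjusted p = 0.0289, adjusted p = 0.1805, edgeR). DESeq2 called Mcpt9 lower (adjusted p = 0.0385), and the groups overlapped. Cma2 had 25.6 CPM in Trp53ΔIEC replicate 1, 0.512 to 4.48 CPM in the other Trp53ΔIEC tumours and 0 to 3.50 CPM in Trp53ΔIECAktE17K tumours. The coding sequences of Mcpt9 and Cma2 have 98.1% identical bases, so their counts are uncertain. At the other end of the cluster Gzmb, the granzyme gene of cytotoxic lymphocytes, had 3.26 to 17.7 CPM in Trp53ΔIEC and 3.19 to 13.3 CPM in Trp53ΔIECAktE17K tumours (log2 fold change -0.51, adjusted p = 0.689, edgeR).

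A wider list of 28 mast cell genes held no gene called by edgeR among the 25 tested. At an unadjusted p under 0.05 there were 4 lower and 3 higher genes, where 8.07% of all genes were lower and 12.8% higher. DESeq2 called 3 lower and 3 higher, where it called 3.70% and 8.31% of all genes, and limma-voom called 0. The lower ones were Mcpt9, Cyp11a1 and Gata1, which edgeR did not test, and the higher ones Alox5ap, Ltc4s and Rgs13. The median log2 fold change of these genes was -0.27, against 0.01 for all genes. Tpsab1, the second mast cell tryptase gene, had 284.6, 126.3, 79.6 and 12.0 CPM in Trp53ΔIEC and 29.0, 73.8, 6.05 and 88.1 CPM in Trp53ΔIECAktE17K replicates 1 to 4 (log2 fold change -1.35, adjusted p = 0.464, edgeR). Gata2, the transcription factor gene of the mast cell and basophil lineage, had 19.8 ± 11.0 and 11.0 ± 6.66 CPM (SD, n = 4 each, adjusted p = 0.446). The steroid side-chain cleavage gene Cyp11a1 and Alox5ap, which assists leukotriene synthesis, had the smallest p of the list. Cyp11a1 had 5.40 ± 2.68 and 1.36 ± 0.670 CPM (adjusted p = 0.0704, edgeR) and Alox5ap 7.48 ± 3.21 and 19.5 ± 5.93 CPM (adjusted p = 0.0766), both without overlap between the groups and both called by DESeq2 (adjusted p = 0.00164 and 0.00518).

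Basophils, which share Fcer1a, Ms4a2 and Hdc with mast cells, left few reads. Their 5 markers summed to 1.58 to 2.64 CPM in Trp53ΔIEC and 1.26 to 2.41 CPM in Trp53ΔIECAktE17K tumours. Mcpt8, the basophil protease gene of the chromosome 14 cluster, had 0 to 19 reads per tumour (0.403 ± 0.222 and 0.375 ± 0.375 CPM, SD, n = 4 each). None of the 3 tested markers was called by edgeR, DESeq2 or limma-voom, and none had an unadjusted p under 0.05. For Cd200r3 the log2 fold change was -0.37 (adjusted p = 0.723, edgeR) and for Il4 -0.17 (0.769).

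Of 20 signals that guide mast cell growth and homing, 18 were tested. edgeR called 1 higher and 1 lower, where it called 3.44% and 0.756% of all genes. DESeq2 called 2 higher and 1 lower, where it called 8.31% and 3.70% of all genes. Beside the 2 genes called by edgeR, DESeq2 called Il3ra as higher (adjusted p = 0.0455 in DESeq2 and 0.131 in edgeR). Ccr3, the eotaxin receptor gene of eosinophils and some mast cells, fell from 1.19, 0.903, 2.07 and 0.745 CPM in Trp53ΔIEC to 0, 0.165, 0.0420 and 0.0931 CPM in Trp53ΔIECAktE17K replicates 1 to 4 (log2 fold change -3.93 ± 0.69, SE, adjusted p = 0.0251, edgeR). Ccl11, the gene of its ligand eotaxin, rose from 10.8, 3.42, 2.79 and 1.54 CPM to 38.0, 169.1, 80.3 and 21.8 CPM (log2 fold change 4.05 ± 0.84, SE, adjusted p = 0.0396). For both genes the groups did not overlap. The Ccr3 call was lost without Trp53ΔIEC replicate 1, 2, 3 or 4 (adjusted p = 0.0574, 0.0739, 0.0676 and 0.0675). The Ccl11 call was kept without Trp53ΔIEC replicate 1 or Trp53ΔIECAktE17K replicate 4. It was lost without Trp53ΔIEC replicates 2, 3 and 4 (adjusted p = 0.114, 0.106 and 0.102) and Trp53ΔIECAktE17K replicates 1, 2 and 3 (0.0731, 0.0722 and 0.0590), and limma-voom gave 0.0671. Il33, the alarmin that acts on mast cells through the receptor of Il1rl1, had 105.7, 95.7, 161.4 and 227.3 CPM in Trp53ΔIEC and 285.6, 375.8, 22.0 and 255.8 CPM in Trp53ΔIECAktE17K replicates 1 to 4, again with Trp53ΔIECAktE17K replicate 3 lowest (adjusted p = 0.625). Il3 had 0 reads in all tumours.

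Of 8 genes for histamine receptors and breakdown, 7 were tested and edgeR called 1, as higher, where it called 3.44% of all genes as higher. DESeq2 called 2 as higher, where it called 8.31% of all genes. Beside Hnmt this was Maob (adjusted p = 0.0369 in DESeq2 and 0.137 in edgeR). Hnmt, the methyltransferase that inactivates histamine in cells, rose from 1.49, 0.827, 1.62 and 0.977 CPM in Trp53ΔIEC to 3.47, 3.58, 4.62 and 2.70 CPM in Trp53ΔIECAktE17K replicates 1 to 4 (log2 fold change 1.55 ± 0.33, SE, adjusted p = 0.0419, edgeR). The groups did not overlap. The call held in 1 of 8 runs that left out a tumour, that without Trp53ΔIECAktE17K replicate 4, and adjusted p in the others was 0.0698 to 0.120. Aoc1, the diamine oxidase that degrades histamine outside cells, had 49.2 to 319.8 CPM in Trp53ΔIEC and 16.1 to 88.0 CPM in Trp53ΔIECAktE17K tumours (adjusted p = 0.326).

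Markers of other tissues were called between the genotypes in the same libraries. Of 8 smooth muscle markers 7 were called higher in Trp53ΔIECAktE17K tumours, and of 8 fibroblast markers 3, Col1a1, Col1a2 and Dcn. Among all genes edgeR called 3.44% as higher. With a tumour left out, Cnn1, Des, Tagln and Actg2 were called in 8 of 8 runs, Col1a1 in 3, Col1a2 in 2 and Dcn in 1 (adjusted p up to 0.113, 0.0970 and 0.107, edgeR). Pdgfra, a fibroblast marker, had a negative log2 fold change of -0.84 (unadjusted p = 0.0447, adjusted p = 0.225). The smooth muscle sum, with Cnn1, Des, Tagln and Actg2, was 311.1 to 501.7 CPM in Trp53ΔIEC and 1133 to 1829 CPM in Trp53ΔIECAktE17K tumours, and the fibroblast sum 2180 to 3344 and 4120 to 6695 CPM, none of them at 0. Their part in the levels of the connective tissue proteases was not tested. Macrophage markers, with Cd68 and Itgam at the smallest p, summed to 368.0 to 831.9 and 320.6 to 947.1 CPM, and lymphocyte markers, with Cd3g and Cd8a, to 14.4 to 82.1 and 10.2 to 54.6 CPM. Of 9 tested heart muscle genes 7 were called higher, at nearly equal levels in all 4 Trp53ΔIECAktE17K libraries, with Myh6 at 52.6, 47.6, 56.8 and 57.0 CPM, Actc1 at 31.2 to 37.8, Mybpc3 at 7.24 to 8.34 and Myl2 at 9.74 to 11.6 CPM. Myh6 was at 0 to 0.224 CPM in the Trp53ΔIEC libraries. Trp53ΔIECAktE17K replicate 3 had as much Myh6 as the others and 1.13 to 2.23 CPM of each protease. Of 10 hepatocyte markers 8 were tested and 1 was called, Crp, which was at 4.81 to 5.64 CPM in the Trp53ΔIEC libraries and at 0 to 0.0423 CPM in the others. Of the other 7 tested, 3 had negative and 4 positive log2 fold changes, from -2.63 for Fga to 2.29 for Fgb, which was at 126.3 CPM in Trp53ΔIECAktE17K replicate 3. The hepatocyte sums, 52.5 to 87.9 and 23.1 to 147.4 CPM, overlapped. The part of heart or liver RNA in the members' levels was not tested.

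The title of each sample holds a letter (A for Trp53ΔIECAktE17K replicates 1 and 2, B for the other tumours, its meaning not given). When it entered the fit, none of the 10 genes was called, and Ccr3, Ccl11, Hnmt and Etv1 were not called either (adjusted p = 0.138, 0.158, 0.156 and 0.206, edgeR). In that fit the log2 fold change was -2.70 for Mcpt1 (adjusted p = 0.513), -1.85 for Cma1 (0.385), 3.02 for Kit (0.207) and 1.06 for Hdc (0.593).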

How the data were processed

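Poly(A)-selected libraries (RNeasy Mini Kit, TruSeq mRNA v2, per the labels) were made from 1 tumour of each of 8 mice. The authors deposited counts of reads per Ensembl gene, with no normalisation, 1 table per tumour. The submitters' processing notes name, without roles, DESeq2 1.8.1, HTSeq 0.6, STAR 2.3.0, SAMtools 1.2, CASAVA 1.8.2 and the build mm10. For annotation release, strand setting and read length the sources used here give nothing. The 5 closing lines of unassigned reads were set aside: 9.74% to 11.7% of uniquely aligned reads lay in no feature. GENCODE M21 (GRCm38) matched 36602 of 38355 identifiers (95.4%).

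Genes were kept by filterByExpr, scaled by TMM and tested with edgeR 4.0.16 (R 4.3.3; quasi-likelihood F-test, robust, group as the only term), with Benjamini-Hochberg adjustment over 16539 genes and calls at an adjusted p under 0.05. The fit was checked on simulated data. DESeq2 1.42.0, limma-voom (limma 3.58.1), other scalings, no filter, the title number as a block, the title letter, and each tumour left out were the alternatives. CPM uses TMM-scaled library sizes; division by the union of exons gives CPM per kilobase. The quasi-likelihood test reports no SE. The SE given for edgeR is the absolute log2 fold change divided by the square root of the F statistic. P-values apply to variation between mice.

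The members and the 17 gene lists were chosen with earlier results of these data known. Named are all members, Kitl, Gata2, Il33, Fcer1g, Tpsab1, Mcpt9 and Mcpt8, up to 4 called or 2 smallest-p genes of each list, and the 5 genes most like Cpa3 and Mcpt1 (predicted models left out). Other genes were named after their values were seen.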

Additional observations from a re-analysis of the deposited data

Results flagged for a closer look

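Within each group of 4 tumours, a highest or lowest value was singled out where its gap to the next exceeded, as a share of the group's range, Dixon's 95% critical value. Of 98 groups of values examined 12 did so. Chance alone gives about 1 in 20 only where values are normally distributed. The rule was applied to CPM, and Camp in Trp53ΔIEC and Crp in Trp53ΔIECAktE17K tumours each stood out by 1 read. The count of 12 therefore cannot show more extreme values than chance gives.

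Kit in Trp53ΔIECAktE17K was the member among them, with replicate 3 at 292.3 CPM against 25.3 to 57.4 CPM in the other 3. This tumour held 36 reads of Mcpt1 and 6960 of Kit.

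The others were not members. High values in Trp53ΔIEC were Cd200r3 at 0.995 CPM, Cnn1 at 16.8 and Des at 22.6 CPM in replicate 1, Cd8a at 6.03 and Camp at 0.0559 CPM in replicate 3, and Dcn at 314.2 CPM in replicate 4. Gstm4 was low in Trp53ΔIEC replicate 4, at 9.54 CPM. In Trp53ΔIECAktE17K tumours Camp at 1.65 and Cd68 at 147.2 CPM were high in replicate 2, Crp at 0.0423 CPM, which is 1 read, was high in replicate 1, and Dcn was low in replicate 3, at 355.0 CPM.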

How the results depend on the processing

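Of 150 log2 fold changes of the 10 members under 15 alternatives, 148 kept their direction and their side of the threshold. DESeq2 called 1 member as higher, Kit. Hdc ranged from -0.35 (without Trp53ΔIECAktE17K replicate 4) to 1.15 with a tumour left out. No member was called with any tumour left out. The range of log2 fold changes over these 8 runs was -3.01 to -1.96 for Mcpt1, -1.96 to -1.23 for Cma1, -1.36 to -0.50 for Tpsb2 and 1.09 to 3.08 for Kit. The difference in the log2 ratio of mucosal to connective tissue proteases stayed negative, from -2.13 to -1.11 with a tumour left out. It was -1.72 without division by length, -1.61 with Cpa3 added and -1.31 for Mcpt1 over Mcpt4.

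Over all genes the counts of 569 higher and 125 lower became 1715 and 764 with DESeq2, 90 and 6 with the title letter as a term, and 64 to 702 and 10 to 247 with a tumour left out. With the title number as a replicate block they were 48 and 2, and none of the 10 members was called. Same-numbered tumours had correlations of -0.04, 0.01, -0.24 and 0.01 between their deviations from the group means, so the numbers were not taken as pairs.

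Uncalled genes that changed sign were Kitl (0.05; -0.47 with the title letter, -0.32 to 0.40 with a tumour left out), Il33 (-0.087 with the title letter), Fcer1g (-0.18 with the title letter, -0.072 to 0.43 with a tumour left out) and Mcpt8 (0.0098 with the title letter, -0.73 to 0.29 with a tumour left out). Pmel (-0.44 to 0.21) and Cd8a (-1.49 to 0.15) did so with a tumour left out. Counting error limits Fcer1a and Ms4a2 in Trp53ΔIECAktE17K replicate 3, with 5 and 2 reads.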

Other observations

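The genes beside Kit on chromosome 5 did not share its level in Trp53ΔIECAktE17K replicate 3. There Chic2 was at 67.7 CPM, Pdgfra at 45.9, the lowest of the 8 tumours, Kdr at 19.4, Srd5a3 at 40.7 and Tmem165 at 104.7 CPM. Over the 8 tumours the range was 59.1 to 117.7 CPM for Chic2, 11.1 to 42.5 for Kdr, 27.2 to 44.4 for Srd5a3 and 71.1 to 110.9 CPM for Tmem165.

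Markers of epithelial cells that can carry Kit and of tuft cells, and of eosinophils, were listed after the data had been seen. The tuft cell transcription factor gene Pou2f3 was highest in Trp53ΔIECAktE17K replicate 3, at 10.2 CPM, with 3.34, 1.11 and 1.26 CPM in replicates 1, 2 and 4 and 0.0752 to 0.224 CPM in Trp53ΔIEC tumours. Il25 was highest there too, at 0.252 CPM (6 reads) against 0 or 1 read elsewhere. Trpm5 at 4.20 and Dclk1 at 14.2 CPM were next to the highest there, below Trp53ΔIECAktE17K replicate 1 with 5.25 and 49.4 CPM. Avil was at 52.8 CPM, the lowest of the 8 tumours, and Sh2d6 at 5.33 CPM lay within the range of the others. The deep crypt secretory cell genes Reg4, Agr2, Spink4 and Muc2 summed to 716.9 CPM in that tumour and to 563.7 to 3470 CPM in the others.

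Siglecf and Epx, markers of eosinophils other than Ccr3, were near 1 CPM or below in most tumours. Siglecf had 0.689 to 1.06 CPM in Trp53ΔIEC and 0.210 to 1.78 CPM in Trp53ΔIECAktE17K tumours (log2 fold change 0.10, adjusted p = 0.941, edgeR), and was, with Ccr3, among the 2 eosinophil markers that passed the filter on low counts. The 3 others had at most 11 reads per tumour. Epx had 5, 2, 1 and 1 reads in Trp53ΔIEC and 1, 1, 0 and 0 reads in Trp53ΔIECAktE17K replicates 1 to 4. In CPM these were 0.0465 to 0.191 and 0 to 0.0423, which did not overlap. The nearest tumours of the groups held 1 read each, so this gap comes from library scaling alone. Of all genes tested, 14.2% had no overlap, 5.88% with the Trp53ΔIECAktE17K tumours lower. DESeq2 gave negative log2 fold changes for Epx (-2.15, no adjusted p), Il5ra (-1.77, adjusted p = 0.309) and Prg2 (-1.53, adjusted p = 0.684).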
